A study of Mus musculus with 10 samples.

Results

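Interferon-induced GTPases are large or mid-sized GTP-hydrolysing proteins that cells make when they sense interferon. The 8 genes described here are 4 guanylate-binding protein genes, Gbp2, Gbp3, Gbp5 and Gbp7, and 4 immunity-related GTPase genes, Igtp, Irgm1, Irgm2 and Iigp1. Every called interval of accessible chromatin that overlapped one of these genes, or the 10 kb on either side of it, was taken. Joined across lists where they overlapped, these intervals made 59 of the 211107 merged regions of the genome. All 8 genes had at least 1 region. On the scale of read depth, the start regions that were open in untreated cells were higher in the lists with oxaliplatin. Most were lower with IFNγ alone, as were most start regions of a like untreated level across the genome. That direction turned when levels were scaled to the median of start regions of the genome. Small regions inside and between the Gbp genes were called in treated lists and not in untreated cells. Around the Iigp1 start most such regions were called only with oxaliplatin and IFNγ together. Over the 59 regions, the shares gained in this way with single agents lay on both sides of those over all merged regions. With the combination the share was higher.

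ATAC-seq, which marks open chromatin by where a transposase cuts it, was run on Myc-CaP, a mouse prostate cancer line labelled as FVB/NJ and male. The 5 groups, all taken at 48 h, were cells left untreated (Ctrl), cells given oxaliplatin at 2 µM (Oxali) or cisplatin at 2 µM (Cispl), cells given IFNγ (1000 pg, for which the labels state no volume) and cells given both oxaliplatin and IFNγ at these amounts (Oxali + IFNγ). Each group had 2 libraries, which the authors pooled before calling, so each group is 1 list of regions and no difference below could be set against a spread between replicates. Read depth, taken from the genome background of each list, was 92.8% of that of Ctrl with Oxali, 113% with Cispl, 79.2% under IFNγ and 106% with Oxali + IFNγ, which makes the IFNγ list the shallowest. Among markers, the start of the epithelial keratin gene Krt8 lay in a region of level 88.8 in Ctrl, 53.7 with Oxali, 44.4 with Cispl, 83.0 under IFNγ and 60.3 with the combination. That of Krt18, another epithelial keratin gene, stood at 3.54 in Ctrl and 4.08 with Oxali and was called in no other list, while at the starts of the epithelial genes Epcam and Cdh1 no region was called in Ctrl, the only call at either in any list being Epcam under IFNγ, at 2.50. The start of the collagen gene Col1a1, which marks stromal cells, stood at 49.9, 37.2, 31.9, 34.5 and 28.4 in the same order of lists, and that of the endothelial gene Pecam1 at 2.39 in Ctrl and at most 2.98 in any list. The part of these marker differences in the results below was not tested. No region was called in Ctrl at the start of Ptprc, the pan-leukocyte gene, and its highest level in any list was 2.93.

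Guanylate-binding proteins assemble on membranes around vacuoles that hold parasites and bacteria, break them open, and feed inflammasome signalling. Among the immunity-related GTPases, Iigp1 (Irga6) is an effector that coats such vacuoles, whereas Irgm1, Irgm2 and Igtp (Irgm3) sit on the cell's own membranes and keep the effectors inactive there. IFNγ acts through its receptor and the kinases JAK1 and JAK2, and genes that it induces often carry gamma activated sites (GAS). The factor IRF1, itself induced by IFNγ, binds the interferon-stimulated response element (ISRE).

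Sequences before the transcription starts are shown because the start is where these elements are known to act. RefSeq promoters (GRCm38.p6, the assembly of mm10), running from 250 bases before the start to 50 after it, were given for 7 of the 8 genes, with 2 starts for Gbp3. The ISRE was searched as GAAANNGAAA on both strands and GAS as TTCNNNGAA, which reads the same on both. All 7 genes had an ISRE match before a start, in 7 of the 8 windows (87.5%), against 3.44% of all 32851 RefSeq promoters. GAS matched in 4 of the 8 windows, those of Gbp5, Gbp7, Igtp and Irgm2, against 8.30% of all promoters. The NF-κB consensus matched in 2, those of Gbp5 and Gbp2, against 8.46%. A match is a description of letters and not evidence that a factor was bound.

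The 30 bases around each ISRE match follow, 5′ to 3′ on the strand of the gene, with the match in capitals; Gbp3 and Irgm1 each have 3 blocks in a row, which give 2 overlapping matches.
Gbp2, chr3:142620594-142620623, plus strand: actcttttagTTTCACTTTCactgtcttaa
Gbp3, chr3:142559992-142560021, plus strand: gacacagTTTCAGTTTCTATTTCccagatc
Gbp5, chr3:142496759-142496788, plus strand: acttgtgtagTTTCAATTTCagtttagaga
Gbp7, chr3:142530273-142530302, plus strand: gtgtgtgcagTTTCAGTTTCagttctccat
Igtp, chr11:58199512-58199541, plus strand: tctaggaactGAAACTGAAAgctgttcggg
Irgm2, chr11:58214903-58214932, plus strand: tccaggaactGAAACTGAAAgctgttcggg
Irgm1, chr11:48871428-48871457, minus strand: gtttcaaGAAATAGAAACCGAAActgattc

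The Igtp and Irgm2 windows are near copies of each other, with an identical run of 55 bases. Reads that lie wholly within such a run cannot be assigned to one gene or the other, and the authors dropped reads of low mapping quality. The match lay 59 bases before the RefSeq start of Gbp2, 53 before that of Gbp7, 34 before that of Igtp, 64 before that of Irgm2 and 165 before that of Gbp5. In Gbp3 the matches began 45 and 39 bases before the start, and in Irgm1 30 and 24. Gbp5 and Gbp7 are shown at greater length, because their promoters carry several elements, the Gbp7 start region had, with each treatment except IFNγ alone, the largest ratio to Ctrl of the coding-transcript starts called in Ctrl, and that of Gbp5 was not called in Ctrl. Capitals mark the ISRE, GAS and, in Gbp5, the NF-κB match.
Gbp5, chr3:142496754-142496899, plus strand: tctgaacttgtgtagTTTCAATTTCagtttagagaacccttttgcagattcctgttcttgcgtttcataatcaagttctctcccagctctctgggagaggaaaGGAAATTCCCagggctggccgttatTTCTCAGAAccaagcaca
Gbp7, chr3:142530156-142530335, plus strand: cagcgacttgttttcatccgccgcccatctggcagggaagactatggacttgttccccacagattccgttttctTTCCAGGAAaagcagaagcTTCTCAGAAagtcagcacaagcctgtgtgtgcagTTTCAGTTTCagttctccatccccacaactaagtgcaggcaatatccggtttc

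Over the 59 regions, 31 were called in Ctrl, 43 with Oxali, 42 with Cispl, 34 under IFNγ and 53 with Oxali + IFNγ. As shares these are 52.5%, 72.9%, 71.2%, 57.6% and 89.8%, beside 52.4%, 70.0%, 77.4%, 50.8% and 79.1% of all merged regions. Strong regions, meaning a q-value no larger than 0.01, numbered 30, 43, 42, 33 and 53. The called regions covered 17844 bp in Ctrl, 23289 bp with Oxali, 22995 bp with Cispl, 18909 bp under IFNγ and 29103 bp with Oxali + IFNγ. The number was highest with the combination, and IFNγ alone stood nearest to Ctrl, both as over all merged regions. Of the 59, 28 were called in all 5 lists (47.5%, against 40.4% of all merged regions) and 14 in a single list (23.7%, the same share as over all merged regions). Those single-list regions comprised 8 in the combination (13.6%, against 8.20%), 3 in Cispl (5.08%, against 9.11%), 2 in IFNγ (3.39%, against 2.55%) and 1 in Ctrl (1.69%, against 1.45%).

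Gained regions were strong under a treatment and touched by no Ctrl interval, and lost regions were the reverse. With Oxali 14 of the 59 were gained (23.7%), against 21.4% of all merged regions, and 2 were lost, against 4.59%. With Cispl 13 were gained (22.0%), against 27.9%, and 1 was lost, against 3.09%. With IFNγ 5 were gained (8.47%), against 5.74%, and 1 was lost, against 7.81%. With Oxali + IFNγ 23 were gained (39.0%), against 29.2%, and 1 was lost, against 3.91%. The shares with the single agents thus lay on both sides of those of the genome, and that of the combination was higher. Stricter calling moved most of these counts by over 1.5 times. At a q-value of 1e-05 gains with Cispl were 5 (8.47%, against 20.5%) and with IFNγ 0 (against 2.55%), while with Oxali they were 12 (20.3%, against 15.8%) and with the combination 19 (32.2%, against 21.5%). With the 100000 strongest intervals of each list, 40 member regions were left, of which 6 were gained with Oxali (15.0%, against 13.4%), 4 with Cispl (10.0%, against 12.7%), 3 with IFNγ (7.5%, against 8.77%) and 11 with the combination (27.5%, against 15.2%). At the level of genes, all 8 had a gained region with Oxali, with Cispl and with the combination, and 5 had one with IFNγ. Of 21951 protein-coding genes, 58.9% had one with Oxali, 68.4% with Cispl, 30.6% under IFNγ and 66.7% with the combination.

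The lists are compared by level, the number of cut sites piled up at the summit of a region divided by the genome background of its list, which removes depth. Ratios of levels carry exact (Clopper-Pearson) 95% intervals that cover counting error only. Neighbouring cut sites and both ends of a fragment are not independent molecules, so these intervals are too narrow. An uncalled region has no value. At the genome background a call needed at least 21 cut sites in Ctrl, 20 for Oxali, 26 with Cispl, 18 under IFNγ and 22 with the combination, and more where the local background was higher.

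Gbp2, which acts with other guanylate-binding proteins at pathogen vacuoles, spans chr3:142620602-142638008. The region over its start (chr3:142620068-142621720) had 316 cut sites at the summit in Ctrl, 341 with Oxali, 373 with Cispl, 261 under IFNγ and 484 with Oxali + IFNγ. Scaled for depth, the levels were 26.0, 30.3, 27.1, 27.1 and 37.5. The start was therefore open in untreated cells. On the scale of read depth only the combination stood clear of Ctrl, at a ratio of 1.44 (1.25 to 1.66). Scaled to the median of start-site regions, the ratios were 1.38 with Oxali, 1.37 with Cispl, 1.40 under IFNγ and 2.00 with the combination. A second region 777 bp upstream (chr3:142619694-142619962) had levels of 8.65 in Ctrl, 16.8 with Oxali, 7.19 with Cispl, 9.67 under IFNγ and 18.3 with the combination. Both oxaliplatin lists were high there, at 1.94 (1.52 to 2.49) and 2.11 (1.67 to 2.69) times Ctrl, and Cispl was at 0.832 (0.626 to 1.11).

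Outside the Irgm1 window, the strongest gained regions by q-value with Oxali and with Cispl lay inside the Gbp2 gene. An intronic region at chr3:142633515-142634147 was called with Oxali (level 7.81), Cispl (6.47) and the combination (10.1) and in neither Ctrl nor IFNγ. Another intronic region at chr3:142630977-142631513 was called in the same 3 lists, at levels of 7.72, 5.67 and 7.59. Of the 9 regions within 10 kb of Gbp2, 5 were called in Ctrl, 8 with Oxali and 8 with Cispl. Under IFNγ 5 were called, and with the combination all 9. Over all merged regions the shares called were 52.4%, 70.0%, 77.4%, 50.8% and 79.1% in this order of lists.

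Gbp3 (chr3:142560026-142573209), a guanylate-binding protein of the same cluster, had its start in a region (chr3:142559648-142561150) of level 30.1 in Ctrl, 41.8 with Oxali, 29.1 with Cispl, 26.1 under IFNγ and 43.4 with Oxali + IFNγ. Against Ctrl the ratio was 1.39 (1.21 to 1.59) with Oxali and 1.44 (1.26 to 1.65) with the combination, while Cispl gave 0.964 (0.835 to 1.11) and IFNγ 0.865 (0.734 to 1.02). Between Gbp7 and Gbp3, a region 9510 bp before the Gbp3 start (chr3:142550205-142550780) was called only with Oxali, at 54 cut sites and a level of 4.79, and with the combination, at 120 cut sites and a level of 9.30. It holds a GAS match 69 bases from its summit. In the coding sequence of Gbp3 (chr3:142567533-142567962), 24 cut sites in Ctrl and 46 with Oxali gave a ratio of 2.06 (1.23 to 3.54). With the combination it had 34 cut sites and a ratio of 1.33 (0.767 to 2.35), an interval that includes 1, and it was called in neither the Cispl nor the IFNγ list.

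Gbp5 (chr3:142493978-142522344), a guanylate-binding protein that promotes inflammasome assembly, has several annotated starts. The start of its coding transcript lies in a region (chr3:142496672-142497176) that was not called in Ctrl and was called in every treated list, with 49 cut sites with Oxali, 49 with Cispl, 30 under IFNγ and 62 with the combination. The levels were 4.35, 3.56, 3.12 and 4.80. They were low, and the IFNγ call was strong at the q-value of 0.01 but not at 1e-05. The ISRE match in the Gbp5 sequence above lies 2 bases from the summit of this region. Further upstream, at the first annotated start, a region (chr3:142493505-142493856) was open in every list, at levels of 19.7 in Ctrl, 28.5 with Oxali, 23.7 with Cispl, 14.7 under IFNγ and 23.9 with the combination.

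Inside Gbp5, both platinum lists and the combination were higher than Ctrl at a pair of intronic regions. The one at chr3:142501752-142502452 lies within 1 kb of an internal annotated start of the gene, and its levels were 7.58 in Ctrl, 16.1 with Oxali, 11.4 with Cispl, 6.03 under IFNγ and 18.7 with Oxali + IFNγ. The ratio to Ctrl was 2.12 (1.64 to 2.75) with Oxali, 1.51 (1.16 to 1.97) with Cispl and 2.47 (1.94 to 3.18) with the combination. At chr3:142499001-142499402 the cut sites numbered 32, 65, 66, 34 and 115 in the same order of lists, and the combination reached 3.38 (2.27 to 5.17) times Ctrl. Each of these introns holds an ISRE match within 100 bases of the summit, 64 and 18 bases away. By contrast, a region 3335 bp before Gbp5 (chr3:142490118-142491128) was lower than Ctrl in every treated list, at levels of 47.2 in Ctrl, 38.6 with Oxali, 32.3 with Cispl, 28.7 under IFNγ and 35.1 with the combination. Scaled to the median of start-site regions it stayed lower with the 3 single agents, and the ratio with the combination turned to 1.03.

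Gbp7 (chr3:142530342-142550149) had, of the coding-transcript starts called in Ctrl, the one furthest above it with Oxali, with Cispl and with the combination. Its region spans chr3:142529729-142531000 and had 163 cut sites in Ctrl, 305 with Oxali, 323 with Cispl, 117 under IFNγ and 426 with Oxali + IFNγ. The levels were 13.4, 27.1, 23.5, 12.2 and 33.0, so the 3 lists with a platinum drug lay above the other two with no overlap of their counting intervals. Ratios to Ctrl were 2.02 (1.66 to 2.45) with Oxali, 1.75 (1.44 to 2.12) with Cispl, 0.906 (0.708 to 1.16) under IFNγ and 2.46 (2.05 to 2.96) with the combination. The ISRE match of Gbp7 lies 2 bases from the summit, and the nearer of the GAS matches 33 bases from it. Before the gene, a region at chr3:142527369-142527658 was called in every treated list, with 67 cut sites with Oxali, 53 with Cispl, 28 under IFNγ and 142 with the combination. Its neighbour at chr3:142527711-142527907 was called with Oxali (74 cut sites) and with the combination (106) only.

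**Figure D1:**
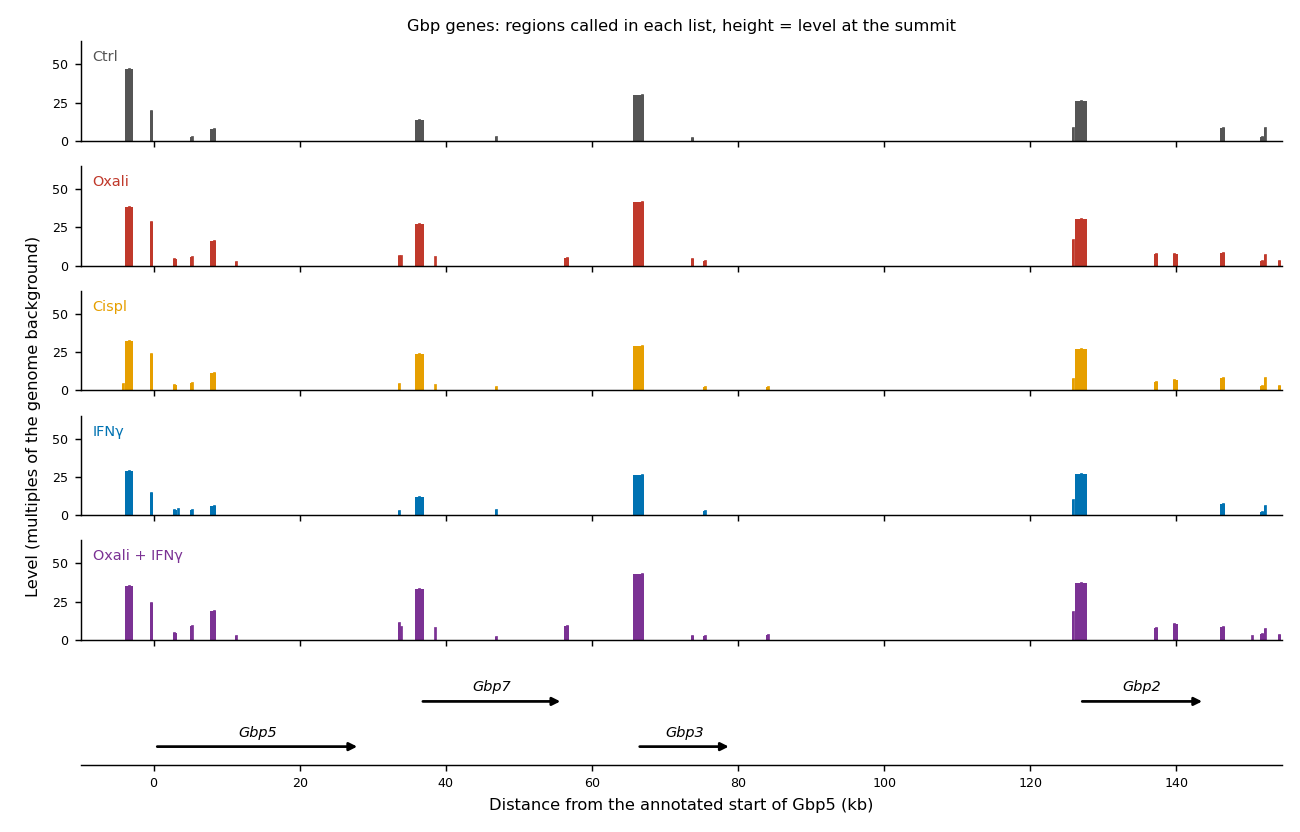
Map of the 4 Gbp genes, with a panel for each list: the horizontal axis is the distance in kb from the annotated start of Gbp5, each bar is a called region and its height is the level at its summit, in multiples of the genome background. The tall start regions are present in every list, and the low bars inside Gbp5, before Gbp7 and inside Gbp2 appear mainly in the Oxali, Cispl and Oxali + IFNγ panels.

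The map of the Gbp cluster shows the same split by eye: the high bars differ in height between lists, and the low bars differ in presence. The 27 regions of the Gbp genes were called 13 times in Ctrl, 22 with Oxali, 21 with Cispl, 16 under IFNγ and 25 with the combination, which is 48.1%, 81.5%, 77.8%, 59.3% and 92.6% of them. Gains were 10 with Oxali (37.0%, against 21.4% of all merged regions), 9 with Cispl (33.3%, against 27.9%), 4 under IFNγ (14.8%, against 5.74%) and 12 with the combination (44.4%, against 29.2%). The 32 regions of the immunity-related GTPase genes were called 18, 21, 21, 18 and 28 times (56.3%, 65.6%, 65.6%, 56.3% and 87.5%), beside the genome shares of 52.4%, 70.0%, 77.4%, 50.8% and 79.1%. Gains there were 4 with Oxali (12.5%), 4 with Cispl (12.5%) and 1 with IFNγ (3.13%), below the shares of all merged regions, and 11 with the combination (34.4%), above it.

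Igtp (chr11:58199556-58207591) and Irgm2 (chr11:58199618-58222782) overlap and read in the same direction, so 9 regions count for both. The region at the shared first start (chr11:58199151-58200019) had levels of 20.2 in Ctrl, 25.1 with Oxali, 25.2 with Cispl, 18.8 under IFNγ and 29.7 with the combination. The start that RefSeq gives for Irgm2 lies downstream in another region (chr11:58214591-58215402), at levels of 27.7, 30.8, 29.5, 23.9 and 36.9. On the scale of read depth, only the combination stood clear of Ctrl at both, with ratios of 1.47 (1.25 to 1.73) and 1.33 (1.16 to 1.54). At the first start Oxali, at 1.24 (1.04 to 1.48), and Cispl, at 1.25 (1.06 to 1.48), also did. Scaled to the median of start-site regions, every treatment lay above Ctrl at both. The ratios ran from 1.16 under IFNγ at the Irgm2 start to 2.04 with the combination at the first.

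With Oxali and with Cispl alone, the largest ratio to Ctrl of any shared region was in an intron common to both genes. That region (chr11:58204588-58205483) had 71 cut sites in Ctrl, 223 with Oxali, 287 with Cispl, 39 under IFNγ and 234 with Oxali + IFNγ. The levels were 5.85, 19.8, 20.9, 4.05 and 18.1, and the counting intervals of the 3 platinum lists did not overlap those of the other two. Against Ctrl the ratios were 3.38 (2.58 to 4.48) with Oxali, 3.57 (2.74 to 4.69) with Cispl, 0.693 (0.457 to 1.04) under IFNγ and 3.10 (2.37 to 4.10) with the combination. Repeat-masked letters make up 71.5% of this region, and it holds none of the searched elements within 100 bases of its summit. A pair of intronic Irgm2 regions further on was called with Oxali (levels 3.55 and 5.06) and with the combination (5.96 and 7.36) and in no other list. The region 5248 bp before Igtp (chr11:58193858-58194488) was open in every list, from 31.6 with Cispl to 50.3 with the combination.

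Irgm1 (chr11:48861968-48871683, minus strand), which protects the cell's own membranes from the effector GTPases, had the highest start region of the 8 genes. It spans chr11:48871126-48872767, with levels of 43.4 in Ctrl, 63.6 with Oxali, 48.6 with Cispl, 33.4 under IFNγ and 62.3 with the combination. Ratios to Ctrl were 1.47 (1.31 to 1.64) with Oxali, 1.12 (0.998 to 1.26) with Cispl, 0.769 (0.667 to 0.885) under IFNγ and 1.43 (1.28 to 1.60) with the combination. A region over an exon near the gene's far end (chr11:48862876-48863773) stood at 14.2 in Ctrl, 20.6 with Oxali, 23.7 with Cispl, 10.4 under IFNγ and 22.1 with the combination. Upstream of Irgm1, the region at chr11:48874518-48874768 was lower than Ctrl in every treated list, at 27.1 in Ctrl and between 17.3 under IFNγ and 21.6 with the combination. Scaled to the median of start-site regions, the ratio turned to 1.01 with Cispl and 1.11 with the combination. This region holds an ISRE match 6 bases from its summit. Next to it, at chr11:48874823-48874982, a region of 140 cut sites was called in Ctrl alone.

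The window of Irgm1 also takes in a dense stretch of 9 regions beyond the end of the gene, within 5227 bp from chr11:48853290 to 48858516. There the local background reached over 10 times the genome background, and the 9 regions held 49.5% of all cut sites at member summits in Ctrl, 43.4% with Oxali, 43.0% with Cispl, 49.9% under IFNγ and 40.0% with the combination. Sums over the 8 genes are therefore given with and without it. The tallest region, chr11:48853290-48854147, stood at a level of 102 in Ctrl, 82.3 with Oxali, 68.5 with Cispl, 76.6 under IFNγ and 64.6 with the combination. Of the 23 regions gained with the combination, 3 lie in this stretch.

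Iigp1, the effector, had the lowest levels of the 8 genes and the most regions called with the combination alone. The region over the start of its main coding transcripts was called in the combination alone, with 39 cut sites and a level of 3.02 (2.15 to 4.13). Of the 7 regions within 10 kb of the gene, 1 was called in Ctrl, 2 with Oxali, 2 with Cispl and 1 under IFNγ. All 7 were called with the combination. Over all merged regions the shares called were 52.4%, 70.0%, 77.4%, 50.8% and 79.1% in this order of lists. Of the 7, 5 were called in the combination alone, against 8.20% of all merged regions, at levels of 2.40 to 3.10. These are low levels, from 31 to 40 cut sites, not far above what a call needed. A region 1590 bp before the start had 37 cut sites with Oxali, 35 with Cispl and 65 with the combination. The region called in every list covers an internal start, with 60 cut sites in Ctrl, 66 with Oxali, 76 with Cispl, 53 under IFNγ and 116 with the combination, which is 1.82 (1.32 to 2.53) times Ctrl. The ratios with the single agents there ran from 1.11 (0.756 to 1.64) with IFNγ to 1.18 (0.823 to 1.71) with Oxali. This region holds an ISRE match 21 bases from its summit and a GAS match 64 bases from it.

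**Figure D2:**
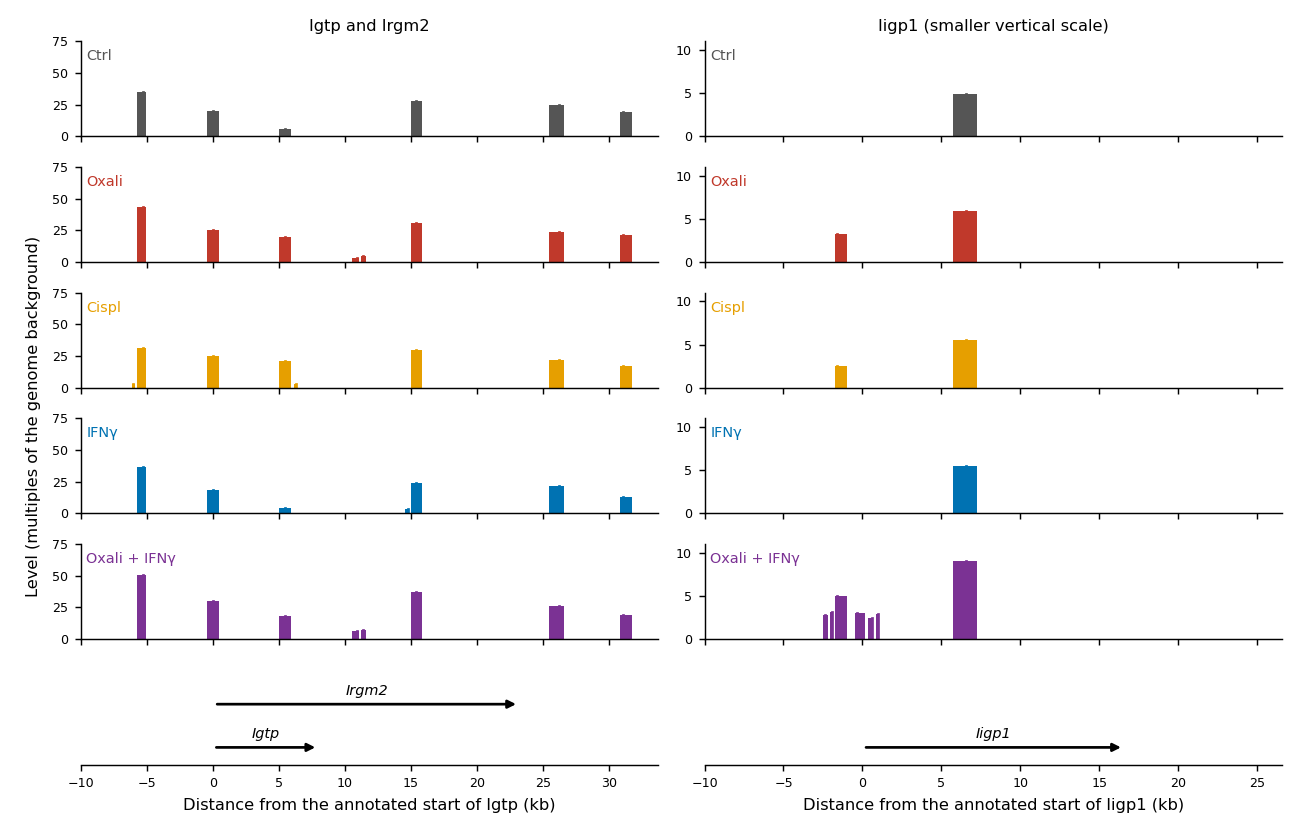
Maps of Igtp and Irgm2 (left) and Iigp1 (right), with a panel for each list: the horizontal axis is the distance in kb from the annotated start, each bar is a called region and its height is the level at its summit, in multiples of the genome background. The intronic bar 5 kb into Igtp is high in the Oxali, Cispl and Oxali + IFNγ panels and low in Ctrl and IFNγ, and the cluster of low bars around the Iigp1 start is seen with Oxali + IFNγ.

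**Figure D3:**
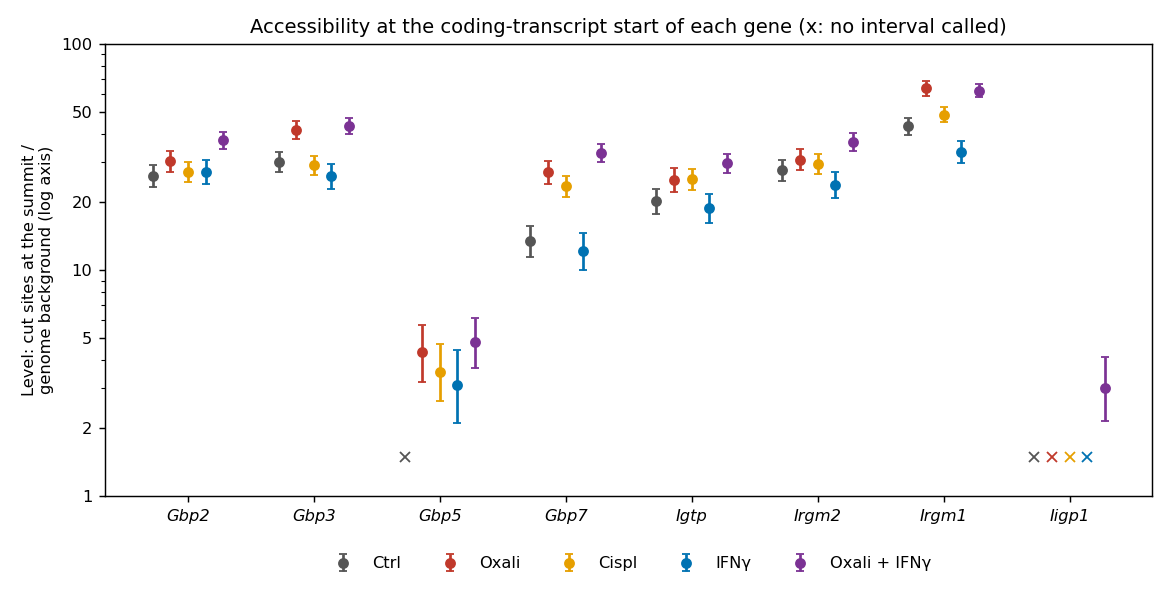
Level at the coding-transcript start of each gene in each list, on a log axis, with error bars for exact 95% counting intervals and a cross where no interval was called. Oxali + IFNγ is the highest list at every gene except Irgm1, where Oxali is at 63.6 and Oxali + IFNγ at 62.3.

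In the plot of start levels, Irgm1 was the highest in every list and Gbp3, Irgm2 and Gbp2 followed it in Ctrl at 30.1, 27.7 and 26.0, with counting intervals that overlap. Igtp (20.2) and Gbp7 (13.4) came next, and the Gbp5 and Iigp1 coding starts were not called. With Oxali + IFNγ, Gbp7 at 33.0 had moved above Igtp at 29.7. At the plotted starts that were called in both lists, the IFNγ level lay below that of Ctrl except at Gbp2, where it was 27.1 against 26.0, a difference within counting error.

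There were 11 start-site regions called in all lists, within 1 kb of an annotated start of these genes. The Oxali level on the scale of read depth was above Ctrl in 11 of 11 (median log2 ratio 0.47). Oxali + IFNγ was above in 11 of 11 (0.53), Cispl in 9 (0.16) and IFNγ in 3 (−0.21). The summed level was 1.41 (1.34 to 1.48) times Ctrl with Oxali, 1.14 (1.08 to 1.20) with Cispl, 0.876 (0.824 to 0.930) under IFNγ and 1.54 (1.46 to 1.61) with the combination. Start-site regions of the whole genome were lower than Ctrl with every treatment, which is the other direction with Oxali, Cispl and the combination and the same direction with IFNγ. Over the 20074 called in all lists the median log2 ratio was −0.25 with Oxali, −0.40 with Cispl, −0.43 under IFNγ and −0.47 with the combination. Those regions are also taller, with a median Ctrl level of 46.0 against 19.7 for the 11. Among the 7935 whose Ctrl level lay in the range of the 11, from 4.94 to 43.4, the medians were 0.10, 0.03, −0.27 and 0.05. All 11 lay above that median with Oxali and with the combination, 9 with Cispl and 7 with IFNγ. When levels were scaled to the median of start-site regions instead, all 11 were above Ctrl with every treatment. Their ratios then ran from 1.003 to 1.506 under IFNγ and from 1.098 to 2.307 with Cispl. With scaling to the median of the regions called in all 5 lists, those under IFNγ lay on both sides of Ctrl, from 0.885 to 1.329. The part of the genome-wide shift in these ratios was not tested.

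On the scale of read depth, and over all regions called in both a treated list and Ctrl, changes from Ctrl of 1.5-fold or more were no more frequent at the GTPase genes than elsewhere. With Oxali 6 of 29 were higher and 0 lower, against 29.2% and 7.67% of all shared regions. With Cispl 5 of 29 were higher and 0 lower, against 25.5% and 12.0%. With IFNγ 0 were higher and 5 lower, against 4.26% and 18.4%. With Oxali + IFNγ 8 of 30 were higher and 2 lower, against 30.4% and 14.3%, and both lower regions lie in the dense stretch. The median log2 ratio of the members was 0.32, −0.05, −0.21 and 0.40 in this order of treatments, beside 0.19, 0.13, −0.23 and 0.18 over all regions.

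These splits depend on the scaling. Scaled to the median of the regions called in all 5 lists, Cispl gave 4 higher and 3 lower (22.6% and 14.5% of all shared regions), and IFNγ 2 higher and 0 lower (11.6% and 6.22%). Scaled to the median of start-site regions, Oxali gave 14 of 29 higher and 0 lower (41.6% and 1.91%), which at 48.3% of the members is a larger share than over all regions. On that scale Cispl gave 8 higher and 0 lower (46.6% and 1.86%), IFNγ gave 5 higher and 0 lower (19.8% and 2.44%) and Oxali + IFNγ 18 of 30 higher and 0 lower (53.5% and 4.89%), where the members' share, 60.0%, was also the larger. The direction with IFNγ alone is thus set by the scale chosen. The summed level over the shared regions was 1.11 (1.08 to 1.14) times Ctrl with Oxali, 0.924 (0.899 to 0.949) with Cispl, 0.836 (0.811 to 0.863) under IFNγ and 1.06 (1.03 to 1.09) with the combination. Without the dense stretch it was 1.25, 1.06, 0.825 and 1.34, so that the sum with Cispl turned from below Ctrl to above it. Other settings also turned the sums. Relative to the median of start-site regions, Cispl was at 1.22 and IFNγ at 1.13 times Ctrl. With a window of 50 kb, Oxali was at 0.981 and the combination at 0.869.

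**Figure D4:**
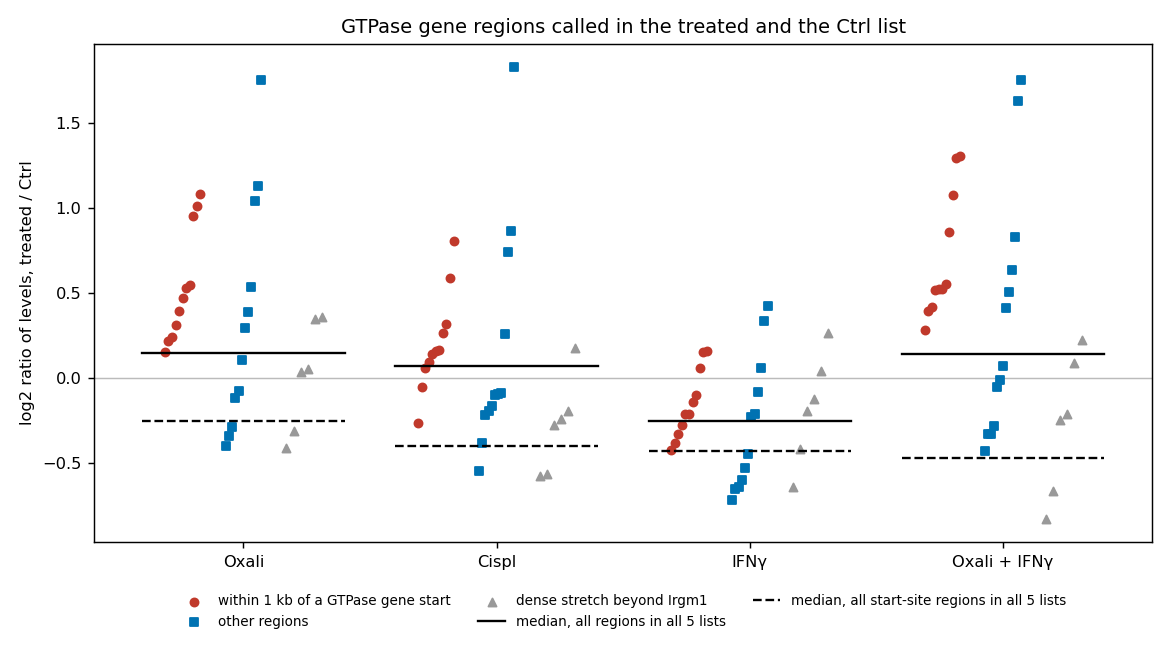
The log2 ratio of levels, treated over Ctrl, for each GTPase gene region called in both lists: circles are regions within 1 kb of a GTPase gene start, squares other regions and triangles the dense stretch beyond Irgm1. Solid lines are the medians of all genome regions called in the 5 lists and dashed lines those of all start-site regions, and all 11 circles lie above 0 with Oxali and with Oxali + IFNγ.

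Cisplatin and oxaliplatin, which share a platinum centre and differ in the ligands it carries, were given at the same dose and time, and this is the 1 pair of related compounds in the data. Of the 59 regions, 37 were called in both platinum lists (62.7%, against 61.3% of all merged regions), 6 with Oxali alone of the pair (10.2%, against 8.70%) and 5 with Cispl alone (8.47%, against 16.1%). Over the 37, Cispl was lower by 1.5-fold or more at 3 and higher at 0, against 12.2% and 6.95% of all shared regions. Scaled to the median of the regions called in all lists 1 was lower and 0 higher (7.76% and 10.9%), and scaled to that of start-site regions also 1 and 0 (6.51% and 12.8%). On the scale of read depth the median log2 ratio of Cispl to Oxali was −0.27, beside −0.10 over all regions, and the summed level was 0.829 (0.807 to 0.851) of that with Oxali. The widest difference was upstream of the Gbp2 start, at 0.429 (0.333 to 0.550). The start regions of Gbp3, at 0.696 (0.607 to 0.796), and Irgm1, at 0.764 (0.687 to 0.850), were also lower with Cispl. At the start of Gbp7 the ratio was 0.867 (0.739 to 1.02), at that of Igtp 1.00 (0.856 to 1.18), and in the intron shared by Igtp and Irgm2 1.05 (0.882 to 1.26), and these intervals include 1, so that a difference inside them was not detectable.

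Adding IFNγ to oxaliplatin was compared with oxaliplatin alone. Of 43 regions called in both lists, 6 were higher with the combination by 1.5-fold or more and 1 was lower, against 3.99% and 4.54% of all shared regions. Scaled to the start-site median, 10 were higher and 0 lower (14.9% and 0.878%). The 6 were the regions before Gbp7, at 1.85 (1.37 to 2.51), and between Gbp7 and Gbp3, at 1.94 (1.40 to 2.73), an intronic region each of Gbp5, at 1.54 (1.13 to 2.13), and Irgm2, at 1.68 (1.13 to 2.53), and the upstream and internal start regions of Iigp1, both at 1.53 (1.01 to 2.36 and 1.12 to 2.11). Of all 43, 29 lay above the genome median of this comparison. The summed level was 0.987 (0.962 to 1.01) of that with Oxali, and 1.10 times it without the dense stretch.

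Against IFNγ alone, the combination was higher by 1.5-fold or more at 17 of 32 shared regions and lower at 1, against 36.2% and 5.54% of all shared regions. Scaled to the median of the regions called in all lists, the split was 6 higher and 3 lower (21.6% and 18.2%). The Igtp and Irgm2 intron had the largest ratio, 4.47 (3.18 to 6.45), followed by the region before Gbp7 at 3.78 (2.51 to 5.89) and the Gbp5 intron at 3.11 (2.33 to 4.22). At the start of Gbp7 the ratio was 2.71 (2.21 to 3.36). The summed level was 1.28 (1.24 to 1.31) times that with IFNγ, and 1.63 times it without the dense stretch.

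Within 100 bases of the summit, an ISRE match lay in 7 of the 18 start-site regions of these genes (38.9%), against 1.95% of the 33552 start-site regions of the genome. A GAS match lay in 5 of the 18 (27.8%), against 4.94%. Away from the starts, each element matched in 3 of 41 regions (7.32%), against 2.70% for the ISRE and 6.26% for GAS in all such regions. Of the 31 regions called in Ctrl, 8 had an ISRE match (25.8%), and of the 28 absent from Ctrl, 2 had one (7.14%). Over all merged regions the order was the opposite, at 1.92% of those called in Ctrl and 3.30% of those absent from it. Start-site regions of these genes were 11 of the 31 and 7 of the 28, and their part in this split was not tested. GAS was split evenly, with 4 matches in the 31 (12.9%, against 5.84%) and 4 in the 28 (14.3%, against 6.28%).

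Further genes of these families and of the IFNγ pathway give the setting. Around 16 other GTPase genes of both families, 69 regions were called 35 times in Ctrl, 49 with Oxali, 49 with Cispl, 35 under IFNγ and 60 with Oxali + IFNγ, or 50.7%, 71.0%, 71.0%, 50.7% and 87.0% of them, beside 52.4%, 70.0%, 77.4%, 50.8% and 79.1% of all merged regions. Leaving out regions that the 8 genes share, 65 remained, of which 13 were gained with Oxali (20.0%, against 21.4% of all merged regions), 14 with Cispl (21.5%, against 27.9%), 4 under IFNγ (6.15%, against 5.74%) and 25 with the combination (38.5%, against 29.2%). Their median log2 ratios to Ctrl were 0.66, 0.53, −0.11 and 0.70. The start region of Gbp6 stood at 5.35 in Ctrl, 11.7 with Oxali, 8.50 with Cispl, 4.99 under IFNγ and 21.8 with the combination. That of Tgtp1, another immunity-related GTPase, stood at 5.27, 11.4, 14.6, 4.57 and 21.4. Both were chosen after their values were seen. Of the 9 genes whose start was called in all lists, the combination was highest at 8, the exception being 9930111J21Rik2, and IFNγ alone was below Ctrl at 5 and above it at 4. Some of these genes share a start region.

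The 11 genes of the pathway did not share this order. Their 104 regions were called 63, 73, 91, 63 and 83 times (60.6%, 70.2%, 87.5%, 60.6% and 79.8%, against the genome shares above), with gains of 13 with Oxali (12.5%), 29 with Cispl (27.9%), 5 under IFNγ (4.81%) and 24 with the combination (23.1%). Beside 21.4%, 27.9%, 5.74% and 29.2% of all merged regions, none of these shares was higher. The median log2 ratios were 0.01, −0.08, −0.29 and −0.12. The start of Irf1 stood at 142 in Ctrl, 104 with Oxali, 90.0 with Cispl, 96.7 under IFNγ and 80.5 with the combination, so that it was open in every list and lower in every treated one. Irf8, an interferon regulatory factor best known from myeloid cells, differed, at 11.0 in Ctrl, 22.5 with Oxali, 24.3 with Cispl, 9.04 under IFNγ and 22.8 with the combination.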

How the data were processed

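The data are ATAC-seq peak lists of 5 groups, from 10 libraries. Per the labels and the methods of the study, the authors trimmed reads with cutadapt, aligned them to mm10 with Bowtie2 2.2.8, filtered out duplicates, mitochondrial reads and those of low mapping quality, pooled both libraries of a group, called peaks with MACS2 2.1.0 without a control library, centring a window on each cut site, and removed blacklisted regions. The deposited fold is the ratio of summit pileup plus 1 to local background plus 1. Also deposited were a −log10 p-value, from the Poisson probability of that pileup, and a score, the −log10 of its q-value, both by MACS2. The lists end at a −log10 p of 2.00, except Cispl at 2.99.

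From these values the whole-number pileup and the background of every peak were solved, for 100% of peaks in each list, and the step was tested on simulated data. The lowest background of a list, its genome background, is proportional to depth and was 12.1 (Ctrl), 11.3 (Oxali), 13.8 (Cispl), 9.62 (IFNγ) and 12.9 (combination). Intervals of the 5 lists were joined where they overlapped by 1 bp. Genes and starts came from GENCODE M21 on GRCm38, and no interval ran past a chromosome end of that assembly. Python 3.11.15, numpy 2.4.6, pandas 2.3.3 and scipy 1.17.1 were used. With 1 pooled list a group, no test between conditions was possible. Regions named with values are those at gene starts, the strongest gained ones and those with the largest ratios per gene, and others named were chosen after their values were seen. The genes, lists and thresholds were chosen with earlier results of these data known. The alternatives tried were the window, the merging distance, the calling threshold, the number of intervals and the scaling.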

Additional observations from a re-analysis of the deposited data

How the results depend on the processing

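No paired analysis was possible because both libraries of a group were merged before peaks were called, and for the same reason no library could be left out. Counts that moved and ratios of summed levels that moved or turned are given by setting, and the cause was not tested. Genome shares of gained regions are given above for the main setting, the q-value limit of 1e-05 and the 100000 strongest intervals. For the other settings no genome share is given, so those counts cannot be read against the genome. With the 100000 strongest intervals of each list, gains were 6 with Oxali, 4 with Cispl, 3 under IFNγ and 11 with Oxali + IFNγ, and losses were 1 with Oxali and 2 with Cispl. With the q-value limit lowered to 1e-05, gains with Cispl were 5, gains with IFNγ 0 and losses with Oxali 1, so that none of the 5 IFNγ gains reached that threshold. With all deposited intervals, losses were 2 with Cispl and 2 with IFNγ. With intervals up to 500 bp apart joined, gains were 3 under IFNγ and 14 with the combination, losses 1 with Oxali and 0 with each other treatment, and the ratios were 1.16 for Oxali, 0.971 for Cispl and 1.16 for the combination against Ctrl, 1.44 for the combination against IFNγ and 1.03 against Oxali, which turned. With a window of 50 kb, strong regions numbered 54 in Ctrl, 80 with Oxali, 78 with Cispl, 58 under IFNγ and 92 with the combination, gains were 28, 26, 12 and 40, and losses were 2 with Cispl, 6 under IFNγ and 3 with the combination. The ratios to Ctrl there were 0.981 for Oxali and 0.869 for the combination, which both turned, 0.833 for Cispl and 0.775 for IFNγ, and the combination was at 0.913 of Oxali and 1.13 of IFNγ. With a window of 5 kb the ratios were 1.18 for Oxali, 0.995 for Cispl and 1.17 for the combination against Ctrl, 1.43 for the combination against IFNγ and 1.02 against Oxali, which turned. Relative to the median of regions called in all 5 lists, the ratios to Ctrl were 1.00 for Oxali, 0.880 for Cispl, 0.994 under IFNγ and 0.961 for the combination, which turned, Cispl was at 0.908 of Oxali, and the combination was at 1.02 of Oxali, which turned, and 1.01 of IFNγ. Relative to the median of start-site regions, they were 1.32 for Oxali, 1.22 for Cispl, 1.13 under IFNγ and 1.47 for the combination, with Cispl and IFNγ turned, Cispl was at 0.940 of Oxali, and the combination was at 1.18 of Oxali, which turned, and 1.37 of IFNγ. Without the dense stretch, which was tried once the data had been seen, the ratios to Ctrl were 1.25 for Oxali, 1.06 for Cispl, which turned, and 1.34 for the combination, and the combination was at 1.10 of Oxali, which turned, and 1.63 of IFNγ. Over regions called in all 5 lists the combination was at 0.957 of Oxali, and after subtracting the local background it was at 1.32 of IFNγ. A −log10 p of at least 3 in every list moved none of the 13 counts. Depth limits weak regions in every list: at the genome background the fewest cut sites behind a call ran from 18 under IFNγ to 26 with Cispl, so that an uncalled region is not shown to be closed.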
